A study of Mus musculus with 4 samples.

Results

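The 3′-UTR peaks near the transcript end are m6A peaks that the authors annotated to a 3′-UTR. Their 3′ edge lies at most 300 bp before the 3′ end of the annotated transcript, with no limit past that end. They were selected by this annotation and distance alone, with no use of signal strength. The CCI list held 4904 such near-end peaks among 16719 3′-UTR peaks and 33556 peaks in all, and the sham list held 5124 among 16810 and 34406. The near-end share of the whole list was 14.6% in CCI (95% Wilson interval 14.2 to 15.0%, counting error only) and 14.9% in sham (14.5 to 15.3%). These peaks belonged to 4375 gene IDs in CCI and 4554 in sham, and 3915 gene IDs were in both sets, which is 89.5% of the CCI genes and 86.0% of the sham genes.

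m6A is a methyl mark on adenosine that a METTL3 and METTL14 writer complex places on mRNA, that FTO and ALKBH5 can remove, and that YTH proteins read. It is common in the last exon, around the stop codon and in the 3′-UTR, often at the letters GGACU. The transcript end is where the mRNA is cleaved and polyadenylated, usually a short distance after an AAUAAA or AUUAAA signal, so the last bases of a 3′-UTR hold the signals for 3′ end formation as well as sites for RNA-binding proteins and miRNAs.

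The spinal cords came from male C57BL/6J mice, 6 to 8 weeks old, and were taken 7 days after surgery. In chronic constriction injury (CCI) the sciatic nerve is tied loosely with silk thread, and the sham mice had the same operation without the thread. For MeRIP-seq, poly(A) RNA was fragmented and captured with an antibody against m6A (IP), and fragments that did not go through the capture served as input. Each group was represented by 1 IP library and 1 input library, and the number of mice behind a library is not given in the sources used here, so differences between the groups cannot be set against a spread between replicates. The value of each peak is the fold enrichment of IP over input as deposited by the authors, and the lists hold no read counts, so the depth is unknown.

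The peak lists fitted the labelled tissue as far as a list of peaks can show it, since a peak needs an expressed transcript but its fold enrichment is not an expression level. Of 8 Hox genes that mark the position along the cord, 7 had a peak in each list, and 5 had a near-end peak in CCI and 6 in sham. Of 16 neuronal markers, 15 had a peak in each list and 9 had a near-end peak. Near-end peaks were found for 3 of 10 astrocyte, 8 of 11 oligodendrocyte and 5 of 11 microglial markers in each list. These counts include markers without a peak. Over all gene names with a peak, 35.3% had a near-end peak in each list, and no difference from this share was tested. Of 5 forebrain genes that should be weak in the cord, 1 had a peak, and it was not near the end. Among 7 genes of the sensory ganglion and peripheral nerve, 4 had a peak and 2 had a near-end peak, among them *Prph* (peripherin).

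The fold enrichment of near-end peaks was higher than that of the other 3′-UTR peaks in both lists. In CCI the median was 9.80 for near-end peaks (middle 50% of peaks from 4.91 to 18.8) and 4.90 for the 3′-UTR peaks further than 300 bp from the end (2.77 to 9.90). In sham the medians were 9.06 (4.65 to 18.6) and 4.84 (2.69 to 9.75). Peaks in 5′-UTRs, at the opposite end of the transcript, had medians of 8.51 in CCI and 8.21 in sham, nearer to those of the near-end peaks, whereas exon peaks had medians of 4.69 and 4.78. A fold enrichment of at least 10 was reached by 49.0% of the near-end peaks in CCI and 46.5% in sham, against 24.6% and 24.3% of the other 3′-UTR peaks. The length of the peaks did not separate these classes. The CCI near-end peaks had a median exonic length of 240 bp, as did the other 3′-UTR peaks, and in sham both classes had 241 bp.

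Within the near-end peaks, enrichment was highest for those that reached the transcript end. In CCI, 1621 near-end peaks (33.1%, 31.7 to 34.4%) ended exactly at the last annotated base, at a distance of 0 bp, and in sham 1839 did (35.9%, 34.6 to 37.2%). Their median fold enrichment was 13.9 in CCI and 13.3 in sham. Peaks that stopped 1 to 50 bp short of the end had medians of 10.2 and 9.49, and those at 51 to 100 bp had 8.34 and 7.15. Above 100 and up to 200 bp the medians were 5.99 in CCI and 5.42 in sham, and above 200 bp 5.35 and 4.98. The fall thus took place within about 200 bp of the end in each list. Beyond the limit the medians were nearly flat, at 4.60 and 4.43 up to 500 bp, 4.42 and 4.53 from there to 1000 bp, and 5.39 and 5.18 between 2000 and 5000 bp.

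The medians just inside and just outside the limit of 300 bp came from few peaks. In CCI, 148 peaks in the last 20 bp inside had a median of 5.75 and 24 peaks in the first 20 bp outside had a median of 7.04, and in sham 166 and 25 peaks had medians of 4.36 and 4.17. The members of CCI just inside the limit were a peak of *Cnpy2* at chr10:128327043-128327253, with a fold enrichment of 16.1, and one of *Ngfr*, the low-affinity neurotrophin receptor, at chr11:95569118-95569357, with 6.60, both at 300 bp. Just outside lay peaks of the interleukin receptor genes *Il21r*, 1 bp past the limit, with a fold enrichment of 7.04, and *Il12rb2* at 302 bp, with 7.38. In sham, *Rgs16*, a regulator of G-protein signalling, and *Cnpy2* lay just inside at 300 bp, with 8.88 and 14.8, and a pair of overlapping *Pcdhgc4* peaks lay just outside at 302 bp, each with 1.23.

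The gradient was present at every exonic length examined. In CCI, near-end peaks of up to 100 bp had a median fold enrichment of 4.34 against 2.14 for other 3′-UTR peaks of that length, and peaks above 100 and up to 200 bp had 6.67 against 2.81. Longer peaks were more enriched in both classes. From there up to 400 bp the CCI medians were 10.9 and 5.50, and above 400 bp they were 14.1 and 10.3. The ratio of the medians was 2.03, 2.37, 1.98 and 1.37 from the shortest to the longest class in CCI, so it was lowest in the longest. The sham medians in the same order of length were 4.36 and 2.00, 6.30 and 2.71, 10.2 and 5.20, and 14.2 and 10.2.

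The same direction was seen inside single genes, where both peaks come from one locus. In CCI, 1924 gene IDs had a near-end peak and another 3′-UTR peak, and the highest near-end peak exceeded the highest other one in 1203 of them (62.5%, 60.3 to 64.7%), with a median log2 ratio of 0.55. In sham this was so in 1171 of 1967 (59.5%, 57.4 to 61.7%), with a median of 0.41. Among genes with exactly 1 peak of each class the share was 68.8% of 959 in CCI and 65.8% of 991 in sham. When only peaks at 0 bp were taken as near-end peaks, the share was 76.9% of 670 genes in CCI and 71.3% of 766 in sham, and the median log2 ratio was 1.27 and 1.16. The spread between genes was wide, with the middle 50% of the CCI genes ranging from -0.72 to 1.91 on the log2 scale in the first of these comparisons.

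Most genes had a single near-end peak. This held for 3918 of the 4375 gene IDs in CCI (89.6%) and 4084 of the 4554 in sham (89.7%). The near-end peak was the only peak of the gene in 1130 gene IDs in CCI and 1126 in sham. Of the 3245 CCI genes with a near-end peak and at least 2 peaks in all, some of them with near-end peaks alone, a near-end peak was the strongest in 55.8% (54.1 to 57.5%). In sham this was so in 53.7% (52.0 to 55.4%) of 3428 genes. With 3 or more peaks per gene, these shares were 48.0% of 2180 genes in CCI and 45.7% of 2299 in sham. Of all peaks of the genes with at least 2, 30.1% in CCI and 30.8% in sham were near-end peaks. The gene with the most near-end peaks was *Pcdhgc4*, of the clustered gamma protocadherins, whose transcripts share their last exons. It carried 22 in CCI and 37 in sham. In all, 616 near-end peaks in CCI (12.6%) and 651 in sham (12.7%) shared bases with another peak of the same list, so these peaks are not separate sites.

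The near-end share of the peaks fell with the genomic span of the transcript. In CCI, 24.5% of the peaks on transcripts of up to 2000 bp were near-end peaks, 19.7% from there to 10000 bp, 15.4% from there to 50000 bp and 8.94% above 50000 bp. In sham the shares were 22.6%, 19.9%, 15.8% and 9.14%. The share of genes with a near-end peak did not fall steadily, at 27.7%, 34.5%, 33.5% and 26.2% in CCI and 25.7%, 34.4%, 33.7% and 26.3% in sham. Near-end peaks were more enriched than the other 3′-UTR peaks in each of the span classes. On transcripts above 50000 bp, the medians were 8.60 and 4.80 in CCI and 7.84 and 4.65 in sham.

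The annotated transcript end is not always the end of the gene, and this was examined with the RefSeq genes of GRCm38.p6. Of the near-end peaks whose gene name and chromosome matched a RefSeq gene (4799 in CCI and 5007 in sham), 77.6% in CCI (76.4 to 78.7%) and 77.4% in sham (76.2 to 78.5%) lay within 300 bp of the RefSeq gene end. For the peaks at 0 bp these shares were 91.6% and 91.1%. A further 573 CCI peaks (11.9%) and 590 sham peaks (11.8%) lay over 1000 bp before the RefSeq end. Of these, 192 in each list ran past the end of their annotated transcript. Most near-end peaks thus also lay near the RefSeq end of the gene. Peaks within 300 bp of the RefSeq end had a median fold enrichment of 10.4 in CCI and 9.63 in sham, against 7.56 and 7.55 for those more than 300 bp before it.

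Some peaks ran past the annotated end. This was the case for 816 near-end peaks in CCI (16.6%) and 857 in sham (16.7%), and 188 and 192 of them ended over 1000 bp past it. Of the latter, 97.3% in CCI and 97.4% in sham consisted of several exonic blocks, whereas this was so for 7.47% and 7.94% of the peaks at 0 bp. Whether the 3′-UTR of these peaks is that of a longer transcript was not tested. Another RefSeq gene, protein-coding or lncRNA, lay under 931 near-end peaks in CCI (19.0%, 17.9 to 20.1%) and 942 in sham (18.4%, 17.3 to 19.5%), and under 13.7% and 13.9% of the other 3′-UTR peaks. The second gene was on the opposite strand for 585 and 582 near-end peaks. The lists give no strand for a peak, so RNA of the 2 genes cannot be told apart there. Over protein-coding near-end peaks that touched no second gene, did not run past the end and lay within 300 bp of the RefSeq end, the median was 9.97 for 2965 peaks in CCI and 9.30 for 3071 in sham. The fall with distance was also present among these peaks, with medians of 14.7 at 0 bp and 5.37 at more than 100 bp in CCI and 13.9 and 5.22 in sham.

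A few near-end peaks were annotated to miRNA precursors that lie inside longer transcripts. In each list, 6 hairpins of the RefSeq table lay wholly inside the exonic blocks of a near-end peak, and all 6 were found in both lists. The peaks of *Mir678* at chr10:76207326-76207409 and *Mir5114* at chr19:44303171-44303231 covered exactly the hairpin, with fold enrichments of 2.87 and 6.08 in CCI and 2.75 and 5.17 in sham. A longer near-end peak over each of these hairpins had 13.4 and 2.37 in CCI and 12.1 and 2.42 in sham. The longer peak over the *Gm23450* hairpin, chr7:3414877-3415648, had 79.7 in CCI and 76.3 in sham. For 4 of these hairpins, chosen after their values were seen, 1 mature miRNA each is shown. Their seeds (bases 2 to 8, in capitals) all differed.

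mmu-miR-678: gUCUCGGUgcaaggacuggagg
mmu-miR-5114: aCUGGAGAcggaagcugcaaga
mmu-miR-935: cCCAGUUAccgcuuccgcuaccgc
mmu-miR-671-3p: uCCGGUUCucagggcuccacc

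These RefSeq sequences (GRCm38.p6) lie at chr10:76207333-76207354 on the minus strand, and on the plus strand at chr19:44303171-44303192, chr7:3415120-3415143 and chr5:24592171-24592191. The libraries were made from fragments of poly(A) RNA and not from mature miRNAs.

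Sequence under the near-end peaks was read where the end of a gene lies in the RefSeq promoter window (250 bases before to 50 after the start) of another gene. At least 100 bases were read in 1 stretch of 19 near-end peaks in CCI and 23 in sham, and of 30 and 37 other 3′-UTR peaks. The letters AATAAA or ATTAAA, on the strand of the annotated transcript, were in 9 of the 19 near-end stretches in CCI (47.4%, 27.3 to 68.3%) and 13 of the 23 in sham (56.5%, 36.8 to 74.4%). Among the other 3′-UTR stretches they were in 3 of 30 (10%, 3.46 to 25.6%) and 3 of 37 (8.11%, 2.80 to 21.3%), although these were longer. With at least 150 bases the shares were 36.4% (15.2 to 64.6%) against 11.5% (4.00 to 28.98%) in CCI and 46.2% (23.2 to 70.9%) against 10.3% (3.58 to 26.4%) in sham. Of the 11 such hexamers in CCI and 15 in sham, 8 and 11 ended within 40 bp before the transcript end, the place where a polyadenylation signal lies. The other 3′-UTR peaks lie further than this by their definition, so the difference between the classes follows in part from how they were chosen. Over all 32851 promoter windows of 300 bases, 17.3% held the hexamer on the strand of their gene and 28.2% on either strand. The intervals treat the stretches as separate, but most loci with a hexamer in CCI also had it in sham. In sham, a hexamer under a pair of overlapping peaks was counted for each.

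GGACT, the DNA form of the common m6A letters, was found in 5 of the 19 near-end stretches in CCI (26.3%, 11.8 to 48.8%) and 6 of the 23 in sham (26.1%, 12.5 to 46.5%), and in 23.3% and 21.6% of the other 3′-UTR stretches. With at least 150 bases the shares were 45.5% (21.3 to 72.0%) against 19.2% (8.51 to 37.9%) in CCI and 38.5% (17.7 to 64.5%) against 27.6% (14.7 to 45.7%) in sham, with wide and overlapping intervals. On the strand of their gene, 26.1% of all promoter windows held it, and 45.5% held it on either strand. Here too, loci were read in both lists, so the shares of the lists are not independent.

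Sequences around these letters are shown for 4 of the genes whose peaks reached the annotated end (0 bp) and could be read in both lists, written in the direction of the transcript with the letters in capitals. They were chosen after their values were seen.

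Dhrs13 GGACT: ggaattgggaaaGGACTaagtcagggcag
Dhrs13 AATAAA: caaaccccctggAATAAAgcgagctgactg
Slc25a44 GGACT: ttagctagaaatGGACTcgaggagattag
Slc25a44 ATTAAA: ctttgaaatgtaATTAAAagtttttattga
Lamb2 AATAAA: gcaagagctttcAATAAAcctgtgtgaacc
Sec24c AATAAA: aatttgtaaagaAATAAAataagatgtaac

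The *Dhrs13* sequences lie at chr11:78037702-78037730 and chr11:78037833-78037862 (GRCm38, plus strand), in the promoter window of *Flot2*, under peaks with a fold enrichment of 40.7 in CCI and 44.7 in sham. The hexamer ends 16 bp before the annotated transcript end. The *Slc25a44* sequences lie at chr3:88410566-88410594 and chr3:88410504-88410533 on the minus strand, in the window of *Pmf1*, under peaks with 15.5 in CCI and 29.8 in sham, and the hexamer ends 18 bp before the end. *Dhrs13* and *Slc25a44* thus carried both kinds of letters within a near-end peak. For *Lamb2*, a laminin chain, the site at chr9:108490498-108490527 on the plus strand has its hexamer 15 bp before the transcript end, under peaks with 12 in CCI and 38.3 in sham. For *Sec24c*, a coat protein of vesicles that leave the endoplasmic reticulum, the site at chr14:20694818-20694847 on the plus strand has its hexamer 17 bp before the end, under peaks with 35.8 and 75.1. These matches describe letters and not sites of modification.

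CCI and sham shared most near-end peaks. In CCI, 4491 of the 4904 (91.6%, 90.8 to 92.3%) overlapped a sham peak by at least 1 bp of exonic sequence, and in sham 4539 of the 5124 (88.6%, 87.7 to 89.4%) overlapped a CCI peak. The shares over all peaks were 87.7% and 83.9%. For the peaks at 0 bp they were 95.0% in CCI and 92.3% in sham. The partner was itself a near-end peak for 4362 CCI peaks and 4378 sham peaks, another 3′-UTR peak for 98 and 127, and an exon or 5′-UTR peak for 31 and 34. The 413 CCI and 585 sham near-end peaks with no partner were weaker and shorter. Their median fold enrichment was 4.80 in CCI and 5.81 in sham, and their median exonic length was 91 bp and 119 bp, against 10.4, 9.63 and 270 bp in both lists for those with a partner.

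A fold enrichment of at least 10 was reached by 24.5% of the unpaired near-end peaks in CCI and 30.8% in sham. The shares were 8.77% and 15.6% of the unpaired other 3′-UTR peaks, and 15.3% and 25.0% of all unpaired peaks. The highest in CCI were those of *Prmt9*, an arginine methyltransferase, at chr8:77581218-77581338 (29.2), the zinc-finger gene *Zfp747* at chr7:127372626-127372804 (25.5) and *Trabd* at chr15:89086957-89087077 (22.9). The highest in sham were those of *Srrm3*, a splicing regulator of neurons, at chr5:135874562-135874772 (59.3), *Ncln* at chr10:81486428-81486607 (50.0) and the RNA helicase gene *Ddx52* at chr11:83962939-83963088 (33.7). Each of these 6 genes had at least 1 peak elsewhere in the other list, so none was missing from it.

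Matching each near-end peak with its best partner in the other list, and keeping mutual matches, gave 4148 pairs. Taking log2 of the CCI value over the sham value, these pairs had a median of 0.06 (0.03 to 0.09). Their quartiles were -0.45 and 0.59, and in 46.1% the CCI value was the lower. Over all 27380 pairs the median was 0.03, with quartiles of -0.37 and 0.43, and over the 9401 pairs of other 3′-UTR peaks it was 0.06, with quartiles of -0.28 and 0.41. The centre of the near-end pairs was thus close to 0, as for the other peaks, and their spread was wider. The rank correlation of the CCI and sham fold enrichments was 0.79 over the near-end pairs, 0.88 over the pairs of other 3′-UTR peaks and 0.85 over all pairs (Spearman, across peaks of the same 4 libraries, which are not independent).

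The wider spread appeared in both directions. A fold enrichment at least 2-fold higher in CCI was found in 567 near-end pairs (13.7%, 12.7 to 14.8%), against 8.59% of all pairs. At least 2-fold lower in CCI were 459 near-end pairs (11.1%, 10.2 to 12.1%), against 7.25% of all pairs. Among the pairs of other 3′-UTR peaks the shares were 6.22% and 4.08%. The shares were also compared at high and at low enrichment. With a fold enrichment of at least 10 in both lists, 12.3% of 1713 near-end pairs were higher and 13.3% lower in CCI, against 8.84% and 9.63% of all 6999 such pairs and 6.72% and 5.52% of 1919 other 3′-UTR pairs. With a fold enrichment under 5 in both lists, which by itself limits the ratio, 1.60% and 1.16% of 687 near-end pairs and 1.21% and 0.60% of all 9210 such pairs passed, so the classes were close there. No count behind these shares has a replicate check.

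The ratio moved with the borders of the peaks. Of the 4114 near-end pairs on 1 annotated transcript, the edge nearer to the end was the same in 2606 (63.3%), further from the end in CCI in 968 (23.5%) and closer in 540 (13.1%). Over all pairs these shares were 45.3%, 32.7% and 22.0%, so the CCI edge was more often the further one there as well. Both peaks were at 0 bp in 1397 pairs, the sham peak alone in 230 and the CCI peak alone in 71. The CCI peak was the shorter in 41.1% of the near-end pairs and the longer in 28.4%, and over all pairs these shares were 44.5% and 31.5%. Where the CCI peak was longer, the median log2 ratio was 0.37 and 22.6% of pairs were at least 2-fold higher in CCI. Where it was shorter, the median was -0.18 and 17.2% were at least 2-fold lower. In the 1112 near-end pairs with identical borders the median was 0.12, and 12.7% were at least 2-fold higher and 8.45% lower, against 7.31% and 4.16% of all 5237 pairs with identical borders.

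*Mmp24* (ENSMUSG00000027612), the membrane-type metalloproteinase gene that the study is about, had a pair of overlapping near-end peaks in each list. In CCI they were chr2:155817730-155818238 with a fold enrichment of 8.95 and chr2:155817770-155818277 with 8.56, at 128 and 89 bp from the transcript end. In sham they were chr2:155817730-155818268 with 13.6 and chr2:155817740-155818306 with 12.4, at 98 and 60 bp. The best-partner pair had a log2 ratio of -0.60, below the 2-fold limit, and 15.8% of all pairs had a lower ratio. Near-end pairs spread more widely, with a lower quartile of -0.45 against -0.37 over all pairs. A 3′-UTR peak of *Mmp24* further from the end with the same borders in both lists, chr2:155816368-155816577, had 4.07 in CCI and 3.86 in sham. Further still, a sham 3′-UTR peak at chr2:155814134-155816070 had 12.1, and a CCI exon peak at chr2:155815712-155816040 had 9.10. The *Mmp24* near-end peaks also lie over a RefSeq gene of the opposite strand, *BC029722*.

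The largest ratios among the named-gene candidates, 3829 near-end pairs with a false discovery rate below 0.01 and a fold enrichment of at least 2 in both lists, included genes whose peaks were divided differently in CCI and sham. *Scrt1*, a neuronal transcriptional repressor, had a CCI peak of 569 bp at chr15:76516203-76516771 with a fold enrichment of 253, and its best partner in sham was a peak of 241 bp with 3.33 (log2 ratio 6.25). A second near-end peak of *Scrt1* in sham, chr15:76516203-76516442, had 140. *Hoxb9*, a Hox gene of posterior identity, had 55.3 in CCI and 2.63 in sham (log2 ratio 4.39), and its second near-end sham peak had 50.0. *Scrt2*, a relative of *Scrt1*, had 4.56 in CCI and 72.0 in sham (log2 ratio -3.98), and its second near-end CCI peak had 85.0. With the highest near-end peak of each list, the log2 ratios were 0.85 for *Scrt1*, 0.15 for *Hoxb9* and 0.24 for *Scrt2*, so the extreme values of these 3 genes went with how the peaks were divided.

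The other extreme pairs had no stronger second near-end peak in the list with the lower value. *St3gal5*, which encodes the ganglioside GM3 synthase, had 183 in CCI and 16.6 in sham over nearly the same bases (chr6:72153946-72154571 in CCI, log2 ratio 3.46). *Mfap3*, a microfibril-associated protein gene, had 42.7 and 2.51 (4.09), with a CCI peak that was 179 bp longer. *Asf1a*, a histone chaperone gene, had 113 and 9.22 (3.62), at a place where *Mcm9* lies on the opposite strand. In the other direction, *Ephb6*, an Eph receptor gene, had 55.3 in CCI and 644 in sham (log2 ratio -3.54) over identical borders, chr6:41620210-41620509. *Man1b1*, a mannosidase gene of the endoplasmic reticulum, had 4.17 and 45.3 (-3.44), also over identical borders, chr2:25352032-25352212. *Tnxb*, which encodes tenascin-X, had 2.74 and 41.8 (-3.93) with a CCI peak of only 61 bp. *Acaa1b*, a peroxisomal thiolase gene, had 5.08 and 56.9 (-3.49), its other near-end CCI peak had 5.06, and *Dlec1* lies there on the opposite strand. *Ephb6*, *Man1b1* and *St3gal5* were therefore the pairs among these 10 whose large ratio came with the same or nearly the same borders and no second gene.

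Pairs with a very high fold enrichment in both lists had ratios in both directions. *Ndn*, an imprinted gene of neurons with a single exon, had a fold enrichment of 1710 in CCI and 6910 in sham at chr7:62349637-62350024, where the lncRNA gene *Gm32061* lies on the opposite strand. *Fam171a2* had 919 and 1560 at chr11:102436981-102438510 in CCI. *Lmtk3*, a kinase gene, had 958 and 564 in peaks of 6 exonic blocks, and *Spire2*, an actin nucleator gene, had 652 and 507 at chr8:123369216-123369515. The *Ndn* peak lay 238 bp from the last base of the transcript, and those of *Fam171a2*, *Lmtk3* and *Spire2* reached it.

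Of 19 genes of the m6A machinery, 14 had a peak in each list, and 3 of these (21.4%) had a near-end peak in CCI and 3 in sham. Over all gene names with a peak the share was 35.3% in both lists, and the difference was not tested on so few genes. The *Rbm15b* peak, of a writer subunit that binds RNA, had 37.2 in CCI and 22.2 in sham at chr9:106884751-106885619 (log2 ratio 0.74). *Alkbh5*, an eraser, had 6.25 and 4.27 (0.55). *Fto* had a near-end peak in CCI alone, with 2.90, and the writer subunit *Virma* in sham alone, with 3.23. Both had stronger peaks elsewhere in the other list, the highest with 7.55 for *Fto* in sham and 14.7 for *Virma* in CCI. Over all genes, 89.5% of those with a near-end peak in CCI and 86.0% of those in sham had one in both lists.

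Of 22 genes for mRNA 3′ end processing, 6 of the 17 with a peak in CCI and 5 of the 16 in sham had a near-end peak. These shares were 35.3% and 31.25%, close to the 35.3% over all gene names with a peak in each list. *Cpsf3*, the nuclease that cleaves the pre-mRNA, had 70.9 in sham and a log2 ratio of CCI to sham of 0.51. *Sympk*, the scaffold symplekin, had 22.9 and 40.7. *Pabpn1*, the nuclear poly(A)-binding protein, had 13.2 and 8.49, and *Cstf1*, a cleavage stimulation subunit, had 10.4 and 6.97. Among their 7 pairs the log2 ratio ranged from -0.83 to 1.04, and 1 pair was at least 2-fold higher in CCI, where 13.7% of the near-end pairs and 8.59% of all pairs were. That pair was *Cpsf4*, with 5.73 and 2.78, named after its value was seen.

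Of 32 genes of central sensitisation and pain signalling, 27 had a peak and 11 (40.7%) had a near-end peak in each list, 10 of them in both. Over all gene names with a peak this share was 35.3%, and the difference was not tested. *Tacr1*, the receptor of substance P, had 42.2 and 95.3 at chr6:82558848-82560074 (log2 ratio -1.18), past 2-fold. *Gria3*, an AMPA receptor subunit gene, had 11.3 and 8.88, and *Camk2b*, a calcium and calmodulin kinase gene, had 7.66 and 9.30. The median log2 ratio of the 10 pairs was 0.30. Of these pairs, 1 was at least 2-fold higher and 1, *Tacr1*, lower in CCI. The shares were 13.7% and 11.1% of the near-end pairs and 8.59% and 7.25% of all pairs.

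Of 14 metalloproteinase and inhibitor genes, 4 had a near-end peak in each list, among 12 with a peak in CCI and 13 in sham. These shares were 33.3% and 30.8%, against 35.3% over all gene names with a peak in each list. *Mmp14*, an activator of other metalloproteinases, had 135 in CCI and 81.3 in sham, in a peak that has a distance of -2665 bp, past the annotated end. *Mmp2* had 3.13 and 3.23, the sheddase gene *Adam10* had 2.93 and 2.84, and *Mmp24* is given above. Of 15 immediate early and injury response genes, all had a peak in each list, and 5 (33.3%) had a near-end peak in CCI and 4 (26.7%) in sham. *Junb* and *Ier2* had one in both lists. The *Junb* peaks formed a pair, with 7.37 and 12.2 (log2 ratio -0.73), and the *Ier2* peaks, with 18.2 and 13.2, did not. Over all gene IDs with a near-end peak, 3915 of 5014 had one in both lists. *Atf3* and *Sprr1a* had a near-end peak in CCI alone, with 4.37 and 4.63, as did *Egr1* with 3.58. *Egr3* and *Nr4a1* had 1 or more in sham alone, the highest with 13.8 and 7.85. Each of these 5 genes had another peak in the list without a near-end peak.

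Of the 34 ribosomal protein genes with a peak in CCI, 23 (67.6%) had a near-end peak, and of the 41 in sham, 30 (73.2%). The share over all gene names with a peak was 35.3% in each list, and the difference was not tested. The ribosomal protein transcripts had a median genomic span of 2722 bp in CCI and 2691 bp in sham. Over all genes with a peak it was 19099 and 18690 bp. *Rpl4* had 197 in CCI and 189 in sham at chr9:64178277-64178606, *Rpl29* had 79.2 and 65.8, *Rpl36a* had 52.1 and 18.1, and *Rpl8* had 30.4 and 35.3. Over their 22 pairs the median log2 ratio was 0.11, and 3 pairs were at least 2-fold higher and 1 lower in CCI, where 13.7% and 11.1% of the near-end pairs and 8.59% and 7.25% of all pairs were.

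The cell type markers had pairs on both sides of the 2-fold limit, which 13.7% of the near-end pairs passed upwards and 11.1% downwards, and 8.59% and 7.25% of all pairs. In neurons, *Nefh* (heavy neurofilament) had 34.7 in CCI and 35.0 in sham, *Slc32a1* (the vesicular transporter of GABA and glycine) 33.7 and 26.0, and *Rbfox3* (NeuN) 19.5 and 15.2. *Gad1*, which makes GABA, had 14.4 and 43.0 in peaks that both ended at 0 bp (log2 ratio -1.58), and it was the neuronal pair past 2-fold. In astrocytes, *Gfap* had one of the strongest near-end peaks, with 346 in CCI at chr11:102887336-102887515 and 422 in sham, while *Gja1* and *Slc1a2* had 5.17 and 3.24 in CCI and 4.68 and 3.50 in sham. In oligodendrocytes, *Sox10* had 27.7 and 12.9 (1.10), in peaks of 329 bp in CCI and 597 bp in sham. Its highest peaks, which were not near-end peaks, had 35.8 in CCI and 106 in sham. The myelin genes *Mbp* and *Mog* had 9.96 and 8.71 in CCI and 9.85 and 7.81 in sham. In microglia, *C1qa* had 154 and 136, *Csf1r* 182 and 74.4 (1.29), *C1qb* 17.8 and 55.4 (-1.64) and *Tmem119* 14.8 and 29.6 (-1). Of the 6 microglial pairs, 1 was at least 2-fold higher and 2 were lower in CCI. Among the Hox genes, *Hoxb8* had 36.6 and 46.6, *Hoxc10* 13.6 and 36.0 (-1.40) and *Hoxd9* 13.0 and 18.6. In the other direction, the highest near-end peaks of *Hoxd10* had 7.56 and 4.89. Those of *Hoxb9* had 55.3 and 50.0, and its pair given above had 55.3 and 2.63 (4.39). Of the 5 Hox pairs, 1 was at least 2-fold higher and 1 lower in CCI. Among the nerve genes, *Prph* had 15.2 and 15.5.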

How the data were processed

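Sample labels describe 1 IP and 1 input library per group, from poly(A) RNA of mouse spinal cord, sequenced as 150 bp paired reads by a dUTP method with a library size of 300 bp. The authors deposited 1 peak list per group, called from IP against input. According to the paper, the authors used Cutadapt, bowtie, MACS2 and ChIPseeker, whereas the submitters' processing notes name fastp, HISAT2, HOMER, ChIPseeker and GRCm38, and the column names are those of exomePeak. The authors deposited for each peak the ratio of IP to input as its fold enrichment. The deposited log10 false discovery rate, minus infinity for some peaks, served as the score of a peak, for filters only. The sources do not state if calling used the strand, and the lists hold no peak strand. The deposited table of differential peaks holds the authors' log2 fold change, p-value and false discovery rate per peak and was not used here.

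The distance was the transcript end minus the peak end on the plus strand, or the peak start minus the transcript start on the minus strand, and is below 0 past the end. Peaks overlapped if their exonic blocks shared 1 bp or more, and pairs were each other's best partner by shared over combined bases. Shares have 95% Wilson intervals and medians of ratios have distribution-free binomial intervals, both for counting error only. Each group had its own input and its own peak borders, so a ratio of the lists also carries these. Called means at least 2-fold between the lists.

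The members and gene lists were chosen with earlier results of these data known. The text names *Mmp24*; by log2 ratio the 5 highest and 5 lowest near-end pairs with a false discovery rate below 0.01 and a fold enrichment of at least 2 in both lists; the 5 with the highest lower value; 3 unpaired genes per list; up to 4 genes per gene list; and the peaks beside the 300 bp limit. Some genes that this rule names are not reported here. Genes shown by sequence, *Pcdhgc4*, *Ier2* and genes with a near-end peak in 1 list alone were named after their values were seen. Of 5013 gene names, 4826 were RefSeq symbols and 86 synonyms. Pairing and distances were tested on simulated data, where all 2700 true pairs of 3000 peaks were recovered. No genome was used here, so motifs were searched only in stretches of RefSeq promoter windows (GRCm38.p6), an analysis added after seeing the data. Python 3.11.15, numpy 2.4.6, pandas 2.3.3 and scipy 1.17.1 were used.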

Additional observations from a re-analysis of the deposited data

How the results depend on the processing

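With 1 IP and 1 input library per group, paired and leave-one-out analyses were not run. Restriction to peaks on the strand of the transcript was not run, since the lists give no peak strand, and the planned searches for GGACT and polyadenylation signals over all members were not run without a genome. Limits are that depth and the variation between animals are unknown, that a fold enrichment depends on the peak borders, and that the end used is that of 1 annotated transcript. Near-end peaks exceeded other 3′-UTR peaks at each length and span examined.

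Values are given for CCI and then sham. The near-end share of the list was 10.7% and 11.1% at a limit of 100 bp, 12.6% and 12.9% at 200 bp, 17.5% and 17.8% at 500 bp, 15.6% and 15.9% for peaks enriched 2-fold or more, 23.7% and 23.0% with 1 peak per gene, and 12.2% and 12.4% without peaks that run past the end. The median fold enrichment was 11.8 and 11.3 at 100 bp, 10.8 and 9.96 at 200 bp, 8.59 and 8.09 at 500 bp, 8.94 and 8.28 at an exonic length of 100 to 400 bp, and 9.45 in sham for peaks enriched 2-fold or more. By whole span the median length was 269 bp in both lists. The share with a partner was 85.0% and 81.4% at an overlap of 50% of both peaks, 88.9% and 85.4% with a near-end partner, and 90.7% in CCI for peaks enriched 2-fold or more in both lists.

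With identical borders the median log2 ratio of the pairs was 0.12. The shares of pairs higher and lower in CCI were 25.1% and 20.9% at 1.5-fold (all pairs 18.8% and 16.4%) and 5.81% and 4.53% at 3-fold (all pairs 3.18% and 2.54%). With a fold enrichment of at least 4 in both lists 12.1% were lower. In alternatives chosen after seeing the data, identical borders gave 8.45% lower, and a fold enrichment of at least 10 in both lists 12.3% higher and 13.3% lower. The near-end peak was the higher in 68.8% and 65.8% of genes with 1 peak of each class, and in 76.9% and 71.3% with peaks at 0 bp. The log2 ratio of *Scrt2* was -3.98 by best partner and 0.24 by the highest near-end peak of each list. The cause of these shifts was not tested. The other 41 of 82 recomputed values lay inside the 95% interval of the first value.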
